A study of Mus musculus with 10 samples.

Results

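Genes whose symbols begin with Slc and a family number form the solute carrier (SLC) series, which encodes most of the membrane transporters for amino acids, sugars, ions, metals, nucleosides, lipids and mitochondrial metabolites. Their levels were followed in keratinocytes of newborn mouse skin. A locus was included in a cell layer when the authors' comparison of that layer had the status OK, its level reached at least 5 FPKM in the higher genotype, and one of its symbols began with Slc and a number. FPKM is the number of sequenced fragments scaled by transcript length and by library size. This rule found 151 loci, of 12171 loci tested in either layer, with 149 Slc symbols from 41 families. Of these, 131 were included in basal cells and 139 in suprabasal cells, and 119 in both.

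The cells came from the skin of 4-day-old FVB/N mice and had been separated by fluorescence-activated sorting into a basal and a suprabasal fraction, whose RNA was sequenced. In each layer there were 3 wild type samples and 2 bitransgenic samples. The bitransgenic mice model Hutchinson-Gilford progeria syndrome (HGPS), in which progerin, a truncated lamin A, accumulates. The labels do not name the promoter that drives the transgenes. The authors' deposited tables hold 1 pooled level for each group, so a level has no spread between samples here. All fold changes are bitransgenic over wild type, and the error after ± is the standard error (SE) of a log2 fold change, derived from the authors' p. The labels do not say which samples came from separate animals, so the authors' p-values may measure only the spread between these samples.

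The family number of an SLC gene follows sequence similarity, and members of a family often share a kind of substrate. Some carriers take nutrients through the plasma membrane, some exchange metabolites across the inner mitochondrial membrane, and others serve the Golgi, lysosomes or pigment granules. In epidermis, glucose and amino acid carriers feed the dividing basal cells, fatty acid carriers serve the lipid barrier, and zinc carriers are needed for healthy skin. A few symbols of the set name no transporter: Slc9a3r1 encodes the scaffold protein NHERF1, and Slc4a1ap and Slc7a6os are named after other genes. These 3 loci were kept under their family numbers.

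Summed levels of keratinocyte markers followed the labelled layers. In wild type, the levels of 10 basal keratinocyte markers summed to 18916 FPKM in the basal fraction and 8768 FPKM in the suprabasal fraction, and those of 14 suprabasal markers to 8939 and 19559 FPKM. The largest part of the basal marker sum was the locus of Krt5 (11677 FPKM in wild type basal cells), which also names Krt2, Krt6b, Krt72, Krt76 and Krt8. Of the suprabasal markers, Tgm3 alone went the other way in wild type (basal 92.9 FPKM, suprabasal 43.7 FPKM). The bitransgenic sums kept the order of the layers. Basal markers summed to 12100 FPKM (basal fraction) against 4769 FPKM (suprabasal fraction), and suprabasal markers to 11063 against 14939 FPKM. Among bitransgenic suprabasal markers, Krt1 (1750 against 1622 FPKM, basal first), Dsg1a (48.0 against 31.6 FPKM) and Tgm3 (58.0 against 24.3 FPKM) went the other way. Levels of different layers come from tables that were scaled on their own. A locus was called when the authors' adjusted p (q) was under 0.05, which held for 1.65% of all tested basal and 0.471% of all tested suprabasal loci. Of the 10 basal markers, 2 were called lower in bitransgenic basal cells and 1 in bitransgenic suprabasal cells. Of the 14 suprabasal markers, 2 were called higher and 1 lower in bitransgenic basal cells, and 1 higher in bitransgenic suprabasal cells. In bulk RNA, fewer cells of a type and less RNA per cell cannot be told apart. The part of these marker differences in the SLC values was not tested.

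Few SLC loci differed between genotypes. In basal cells 5 of 131 SLC loci (3.82%) were called, 4 lower and 1 higher, against 1.89% of the 9347 basal loci of the same minimum level. The lower calls were 3.05% of SLC loci, against 1.58% of all. Slc27a3, Slc22a4, Slc25a10 and Slc24a3 fell, and Slc29a3 rose. In suprabasal cells 1 of 139 SLC loci (0.719%) was called, against 0.549% of 9657 loci in either direction and 0.497% lower. It was Slc22a4, which fell there too. Slc27a3 and Slc24a3 in basal cells and Slc22a4 in suprabasal cells reached the minimum through the wild type group alone, which fixed their sign. The counts of lower and higher calls are therefore descriptions only. When the authors' p was instead adjusted by the Benjamini-Hochberg procedure over the whole table, 1 of the 5 basal calls was kept (Slc27a3), where 0.663% of all basal loci were called. The suprabasal call of Slc22a4 was kept under that adjustment, where 0.487% of loci were called. When the fold changes were also centred on the median locus, Slc27a3 stayed called in basal cells (0.428% of loci) and Slc22a4 was no longer called in suprabasal cells (0.383% of loci).

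More basal SLC loci had lower than higher bitransgenic levels. At the authors' unadjusted p under 0.05 there were 19 basal SLC loci, 15 lower and 4 higher, or 14.5% against 8.15% of all basal loci of that level. The lower loci alone were 11.5% of SLC loci against 6.45% of all, and the higher loci 3.05% against 1.7%. In suprabasal cells there were 13 such loci, 10 lower and 3 higher, or 9.35% against 7.65%. The suprabasal lower loci were 7.19% against 5.63%, and the higher loci 2.16% against 2.02%. Of the 131 basal SLC loci, 91 (69.5%) had a log2 fold change below 0, against 59.4% of all loci. Of the 139 suprabasal loci, 81 (58.3%) lay below 0, against 56.5%. Centring on the median of expressed loci, -0.11 in basal and -0.08 in suprabasal cells, left 82 (62.6%) and 71 (51.1%) SLC loci below 0, against 49.3% and 49.8% of all. The median log2 fold change was -0.28 in basal cells, where that of all loci was -0.10, and -0.11 in suprabasal cells, where that of all loci was -0.08. Of the basal loci, 24 passed the level minimum through the wild type group alone and 3 through the bitransgenic group alone, and a locus that passes only through the group where it is high has its sign fixed by that. Of the suprabasal loci, 16 passed through the wild type group alone and 5 through the bitransgenic group alone. Of the loci lower at p under 0.05, Slc27a3, Slc7a4 and Slc2a8 in basal and Slc24a3 and Slc17a5 in suprabasal cells were among these. Counts of lower and higher loci, counts below 0 and medians, over all SLC loci and over each class, are therefore descriptions only. Among the 104 loci with at least 5 FPKM in both basal groups the median was -0.15, and it was -0.07 for all such loci. Among the 118 such loci in suprabasal cells the median was -0.04, above the -0.06 of all such loci, so the order of the suprabasal medians turned. Most SLC loci lay near 0, and 112 of 131 in basal and 124 of 139 in suprabasal cells lay within 1 log2 unit of 0. Just inside the basal minimum were Slc16a7 (5.02 FPKM in the higher group), the lowest Slc15a2 locus (5.02 FPKM) and Slc6a2 (5.03 FPKM), and just outside it Slc29a2 (4.86 FPKM) and Slc35b4 (4.57 FPKM). Just inside the suprabasal minimum were Slc25a32 (5.19 FPKM) and Slc25a37 (5.22 FPKM), and just outside it Slc38a7 (4.99 FPKM). Below the minimum lay 31 basal and 45 suprabasal SLC loci, and none of them was called.

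**Figure D1:**
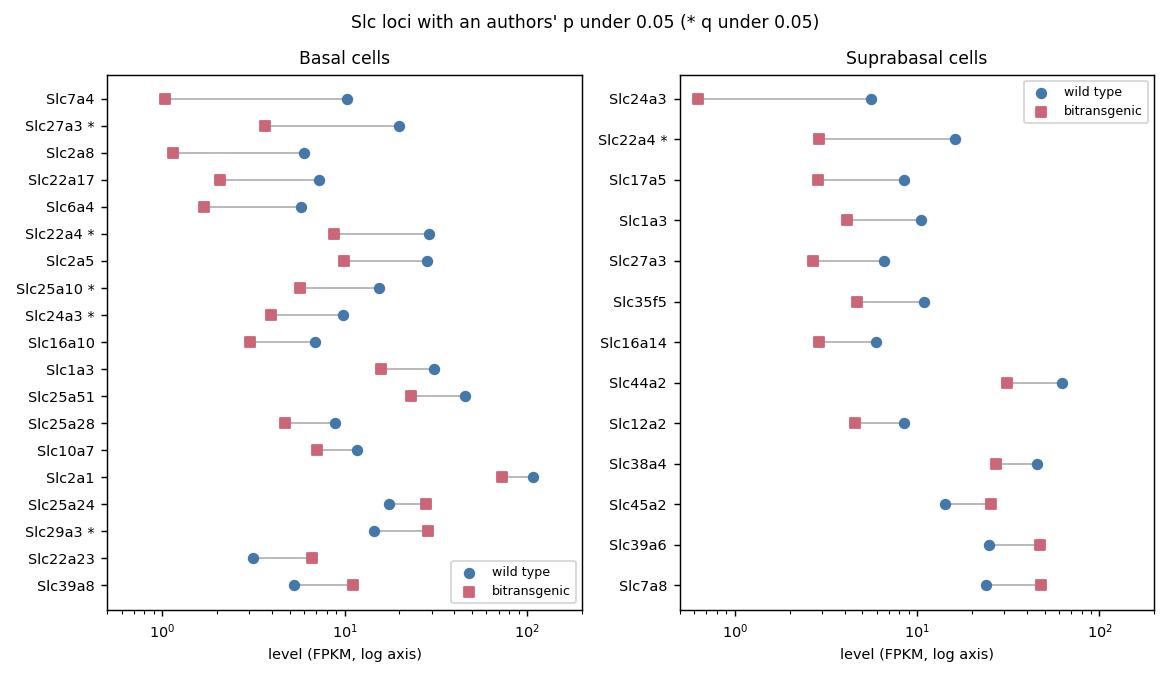
Levels (FPKM, log axis) of the SLC loci with an authors' p under 0.05, in basal (left) and suprabasal cells (right). Circles are wild type and squares bitransgenic group levels, 1 pooled value each, and an asterisk marks q under 0.05. In 15 of 19 basal rows and 10 of 13 suprabasal rows the bitransgenic level is the lower one. Rows under 5 FPKM in 1 group passed the level minimum through the other group alone, which fixed their direction.

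Slc22a4 was the only SLC locus called in both layers. It encodes OCTN1, a plasma membrane carrier of the antioxidant ergothioneine, and lies on the minus strand of chromosome 11 (mm10, 53983123 to 54028155). Its basal level was 29.1 FPKM in wild type and 8.74 FPKM in the bitransgenic group, and its suprabasal levels were 16.2 and 2.90 FPKM. It was lower in both bitransgenic groups, by 3.32-fold in basal and 5.57-fold in suprabasal cells. In the authors' deposited tables the log2 fold changes were -1.73 ± 0.53 (q = 0.0371) and -2.48 ± 0.67 (q = 0.0356). The difference between the layers, -0.75 ± 0.85, was smaller than its SE.

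Slc27a3 had the largest fold change among the 5 basal calls. It encodes FATP3, an acyl-CoA synthetase of the fatty acid transport protein family, and lies on chromosome 3 (90385239 to 90389938). Its level fell from 19.95 FPKM in wild type to 3.67 FPKM in bitransgenic basal cells, or 5.43-fold. The log2 fold change in the authors' deposited table was -2.44 ± 0.60 (q = 0.00858), and its p was the smallest the table holds, 5e-05, so this SE is an upper bound. In suprabasal cells the levels were 6.56 and 2.70 FPKM, a log2 fold change of -1.28 ± 0.60 that was not called (q = 0.409 in the authors' deposited table).

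Slc29a3, on chromosome 10 (60711968 to 60752833), was the single SLC locus called higher. It encodes ENT3, a nucleoside transporter of lysosomes and mitochondria. The level rose 1.98-fold in basal cells, from 14.4 to 28.5 FPKM. The log2 fold change in the authors' deposited table was 0.98 ± 0.30 (q = 0.0371). The suprabasal levels were 12.7 and 18.1 FPKM, and the log2 fold change of 0.51 ± 0.38 was not called.

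The promoter windows of these 3 genes are printed because they belong to the locus called in both layers, the basal call with the largest fold change and the single higher call. Each runs from 250 bases before to 50 bases after the annotated start, 5′ to 3′ on the gene's strand (minus for all 3), from RefSeq on build GRCm38.p6. Capitals mark matches to the letters searched on both strands, and a match on the other strand shows as its reverse complement. The GC box was searched as GGGCGG and the CCAAT box by the letters of its name. The E-box was searched as CACGTG. The core of TCF/LEF sites was searched as CTTTGA, and the AP-1 site as TGANTCA.
Slc22a4, chr11:54028055-54028354: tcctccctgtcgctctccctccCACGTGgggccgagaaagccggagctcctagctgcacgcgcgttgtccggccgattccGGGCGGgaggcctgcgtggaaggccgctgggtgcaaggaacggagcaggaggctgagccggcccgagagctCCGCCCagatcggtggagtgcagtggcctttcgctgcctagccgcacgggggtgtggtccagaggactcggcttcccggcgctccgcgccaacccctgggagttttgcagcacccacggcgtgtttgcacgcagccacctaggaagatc
Slc27a3, chr3:90389889-90390188: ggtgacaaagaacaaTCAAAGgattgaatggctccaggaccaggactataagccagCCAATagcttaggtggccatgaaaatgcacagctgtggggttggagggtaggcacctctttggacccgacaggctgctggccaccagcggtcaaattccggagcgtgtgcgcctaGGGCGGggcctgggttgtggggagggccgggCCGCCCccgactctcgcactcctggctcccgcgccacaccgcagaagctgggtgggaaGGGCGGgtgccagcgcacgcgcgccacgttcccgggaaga
Slc29a3, chr10:60752733-60753032: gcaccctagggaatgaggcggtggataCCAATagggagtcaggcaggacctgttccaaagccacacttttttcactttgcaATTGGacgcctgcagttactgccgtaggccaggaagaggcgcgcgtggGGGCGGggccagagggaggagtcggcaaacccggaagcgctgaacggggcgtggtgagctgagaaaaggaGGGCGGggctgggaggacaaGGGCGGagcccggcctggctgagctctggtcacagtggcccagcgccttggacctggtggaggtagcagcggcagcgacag
The Slc22a4 window holds 2 GC boxes and 1 E-box. The Slc27a3 window holds 3 GC boxes, 1 CCAAT box and 1 TCF/LEF core, and the Slc29a3 window 3 GC boxes and 2 CCAAT boxes. No letters of the AP-1 motif occur in these windows. A GC box was found in 72.3% of the 148 windows of 112 matched SLC symbols, in 35.7% of all 32851 windows, and in 64.3% of the 9475 windows of genes at the same minimum level. The AP-1 letters were found in 6.08% of SLC windows, 7.81% of all and 5.30% of those of measured genes. For the E-box the 3 shares were 10.1%, 7.15% and 10.3%, for the TCF/LEF core 12.2%, 16.0% and 11.5%, and for the CCAAT box 35.8%, 37.4% and 37.0%. These matches describe letters only and no binding was measured.

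Slc24a3 and Slc25a10 were the remaining basal calls. Slc24a3 encodes NCKX3, which exchanges sodium for calcium and potassium, and lies on chromosome 2 (145167754 to 145642166). Its level fell from 9.76 to 3.94 FPKM in basal cells, at a log2 fold change of -1.31 ± 0.44 (q = 0.0455 in the authors' deposited table). The suprabasal levels were 5.57 FPKM (wild type) and 0.627 FPKM (bitransgenic). That difference was larger, at -3.15 ± 0.92, and was not called (q = 0.0771 in the authors' deposited table). The suprabasal bitransgenic level was under 1 FPKM, and with 1 FPKM added to both groups the log2 ratio was -2.01. Slc25a10 encodes the mitochondrial dicarboxylate carrier, which exchanges malate or succinate for phosphate, and lies on chromosome 11 (120489406 to 120499401). Its level fell from 15.4 to 5.71 FPKM in basal cells, at -1.43 ± 0.40 (q = 0.0371 in the authors' deposited table). In suprabasal cells it was 8.28 and 9.37 FPKM, a log2 fold change of 0.18 ± 0.44.

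Some loci around Slc22a4 were also called lower in bitransgenic basal cells, but its nearest tested neighbours, Slc22a21 and Pdlim4, were not. A stretch of chromosome 11 from Irf1 to P4ha2 (53770014 to 54131665, 361.7 kb) was described after its values had been seen. In basal cells all 8 tested loci of the stretch had a log2 fold change below 0, where 59.4% of basal loci of the minimum level did. Of the 8, 4 were called lower, Slc22a4 among them, where 1.65% of all tested basal loci were called. Both ends of the stretch are loci called in basal cells, so these counts follow from how it was chosen and are descriptions only. The next loci past P4ha2, Gm12226 and Fnip1, had basal log2 fold changes of 0.81 ± 1.72 and 0.27 ± 0.38. Irf1, an interferon-induced transcription factor, fell from 119 to 52.4 FPKM (-1.18 ± 0.38). P4ha2, a subunit of the enzyme that hydroxylates collagen prolines, fell from 9.40 to 2.39 FPKM (-1.97 ± 0.59), and the predicted gene Gm12216 fell from 6.74 to 0.826 FPKM. The carnitine carrier Slc22a5 lies in the same stretch below the level minimum, at 4.51 and 1.01 FPKM in basal and 1.64 and 2.78 FPKM in suprabasal cells. A further organic cation carrier there, Slc22a21, was at 3.89 and 2.81 FPKM in basal and 2.32 and 3.01 FPKM in suprabasal cells. In suprabasal cells 5 of 7 loci lay below 0, where 56.5% of suprabasal loci of the minimum level did, and Slc22a5 and Slc22a21 lay above 0. Slc22a4 was the single suprabasal call, where 0.471% of all tested loci were called. Irf1 was 78.9 and 27.0 FPKM there (q = 0.136 in the authors' deposited table). None of the 4 basal calls was kept after Benjamini-Hochberg adjustment over the table, where their adjusted p-values were 0.0941 to 0.162.

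**Figure D2:**
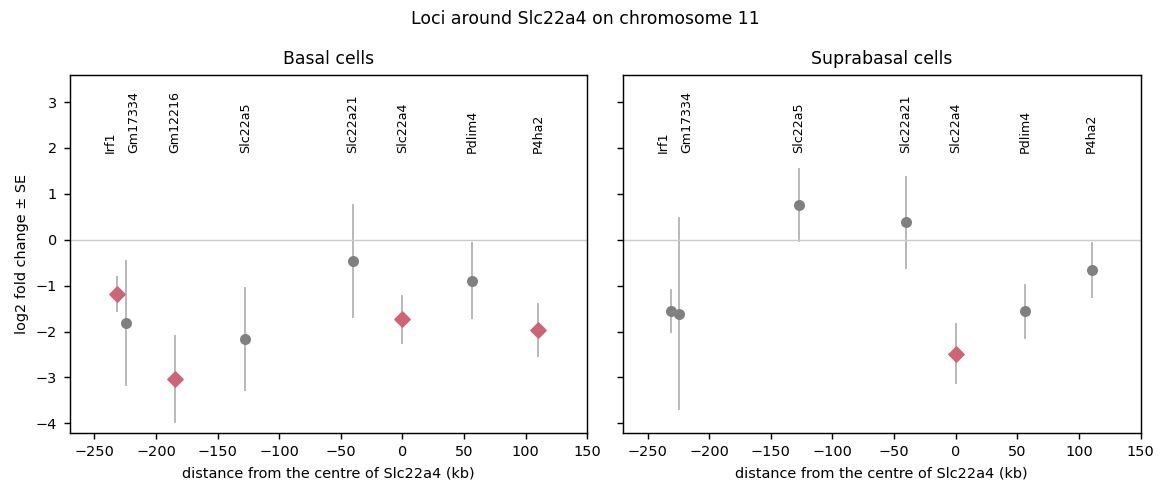
Log2 fold change with its derived SE (vertical axis) against distance from the centre of Slc22a4 in kilobases, for loci from Irf1 to P4ha2 in basal (left) and suprabasal cells (right). Red diamonds are called loci, 4 in basal and 1 in suprabasal cells, and grey circles are not called; Gm17334, which shares the span of Irf1, is drawn 7 kb to the right.

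Among amino acid carriers of the plasma membrane none was called in either layer. Of 18 basal loci, 14 were below 0 and 4 above, with a median of -0.35, where 59.4% of all basal loci lay below 0. Of these 18, 5 passed the minimum through the wild type group alone, and over the 13 loci at 5 FPKM in both groups 9 were below 0, with a median of -0.15. Centring kept 14 of 18 below 0. In suprabasal cells 9 of 18 lay on each side, with a median of -0.01 that turned to 0.07 when centred. Slc38a2, the sodium-coupled carrier SNAT2, had the highest level of the class in 3 of the 4 groups, at 202 and 183 FPKM in basal and 154 and 138 in suprabasal cells. Its log2 fold changes were -0.14 and -0.17. Slc3a2 encodes the CD98 heavy chain, the partner of several Slc7 carriers. Its levels were 60.7 and 69.0 FPKM in basal cells and 124 and 181 FPKM in suprabasal cells, with log2 fold changes of 0.18 and 0.55 that were not called. Slc38a4 (SNAT4), a further sodium-coupled carrier, was at 82.9 and 73.0 FPKM in basal and 45.4 and 27.2 FPKM in suprabasal cells (-0.18 ± 0.28 and -0.74 ± 0.35, neither called). Slc1a3, the glutamate and aspartate carrier GLAST, had lower bitransgenic levels in both layers, 31.0 and 15.8 FPKM in basal and 10.5 and 4.10 in suprabasal cells. Neither difference was called (q = 0.0948 and 0.381 in the authors' deposited tables).

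Among the remaining amino acid carriers, several low loci stood at the edges. Slc7a4, a relative of the cationic amino acid carriers, was at 10.3 FPKM in the wild type and 1.03 FPKM in the bitransgenic basal group, but its error was wide (-3.32 ± 1.55, q = 0.288 in the authors' deposited table). Slc6a4, the serotonin transporter, was 5.78 and 1.70 FPKM in basal cells (-1.76 ± 0.76). Slc7a11 is the cystine carrier xCT and a known target of ATF4 and NRF2. Its levels were 1.47 and 4.18 FPKM in basal cells, under the minimum, and 3.24 and 7.43 FPKM in suprabasal cells (1.20, q = 0.565 in the authors' deposited table). Slc7a8, which encodes the neutral amino acid carrier LAT2, was included in suprabasal cells only. Its levels were 23.9 and 48.0 FPKM there, or 1.01 ± 0.38, the lowest unadjusted p among suprabasal SLC loci that were higher (p = 0.00775, q = 0.163 in the authors' deposited table). The glutamine carrier Slc1a5 lay between 4.88 and 7.72 FPKM in the 4 groups. The leucine carrier Slc7a5, a partner of Slc3a2, was not analysed here.

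Among glucose and sugar carriers none was called in either layer. Of 8 basal loci 6 were below 0, with a median of -0.74, but 4 of the 8 passed the minimum through the wild type group alone. Over the 4 loci at 5 FPKM in both groups, 2 were below 0 and the median was -0.28. Over the 5 loci whose mean of the groups reached 5 FPKM, 3 were below 0 and the median was -0.40. In the Slc2 (GLUT) family, Slc2a1 and Slc2a5 were at 5 FPKM in both basal groups, and Slc2a6 and Slc2a8 in wild type alone. Slc2a1, the main glucose carrier of keratinocytes, was 108 and 73.0 FPKM in basal and 85.5 and 59.8 FPKM in suprabasal cells. Its log2 fold changes were alike, -0.57 ± 0.26 and -0.51 ± 0.34, and neither was called (q = 0.285 and 0.750 in the authors' deposited tables). Slc2a5, the fructose carrier GLUT5, was 28.3 and 9.92 FPKM in basal cells (-1.51 ± 0.55, q = 0.0807 in the authors' deposited table) and 12.6 and 6.91 FPKM in suprabasal cells. Slc2a8, an intracellular hexose carrier, was 6.03 and 1.15 FPKM in basal cells (-2.39 ± 0.88, q = 0.0843 in the authors' deposited table). In suprabasal cells 4 of 7 sugar carriers were below 0, with a median of -0.28, and over the 6 loci at 5 FPKM in both groups 3 were below 0, with a median of 0.10.

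Monocarboxylate carriers of the Slc16 family were below 0 at 4 of 6 basal and 5 of 7 suprabasal loci, with no call. The lactate carrier Slc16a1 (MCT1) had the highest level of the family, 39.4 and 45.3 FPKM in basal and 24.5 and 21.5 FPKM in suprabasal cells. Slc16a10, a carrier of aromatic amino acids and thyroid hormone, was 6.87 and 3.03 FPKM in basal cells (-1.18 ± 0.44). Slc16a14, an orphan of the family, was 5.94 and 2.90 FPKM in suprabasal cells (-1.03 ± 0.51). Both differences had an unadjusted p under 0.05 and a q above it.

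**Figure D3:**
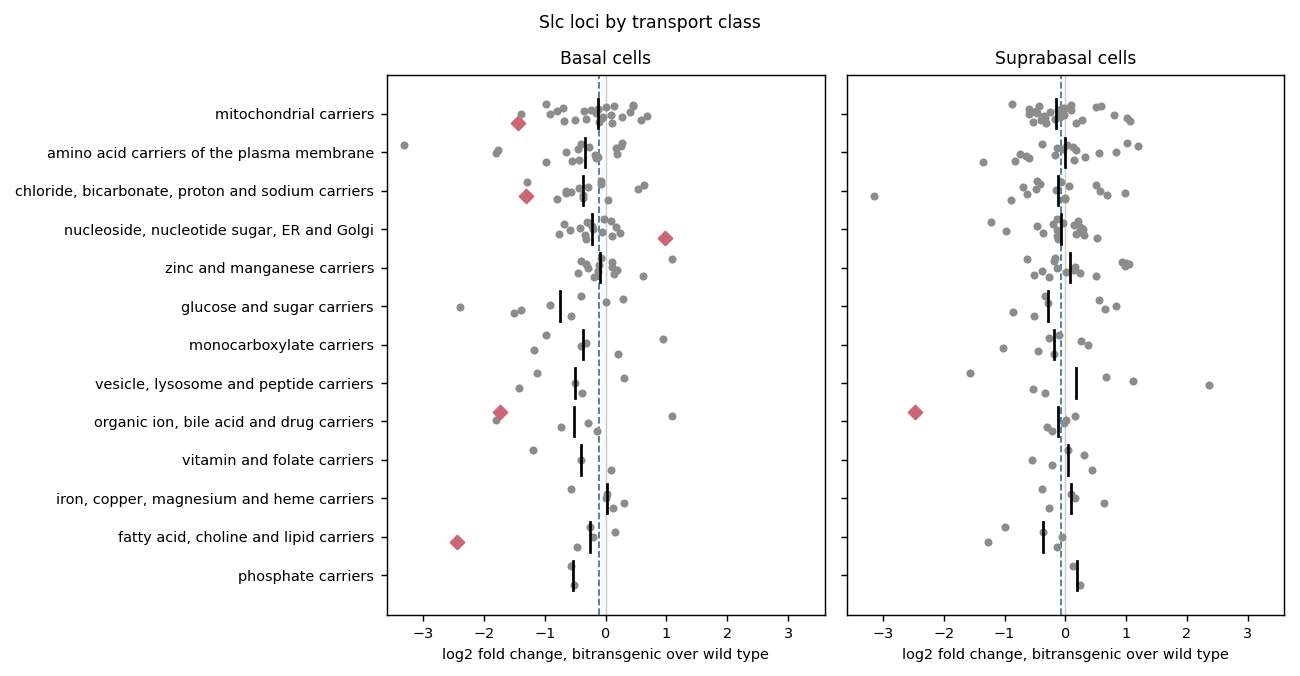
Log2 fold change, bitransgenic over wild type, of every SLC locus by transport class, in basal (left) and suprabasal cells (right). Each point is a locus, red diamonds are called loci, black bars are class medians, and the dashed line is the median of all loci of the same minimum level (-0.10 and -0.08); most points lie within 1 log2 unit of 0 in both layers.

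The mitochondrial Slc25 family was the largest, with 27 basal and 28 suprabasal loci. Their medians were -0.12 and -0.15, with 17 and 19 loci below 0 (14 and 16 when centred), and Slc25a10 in basal cells was the single call. The phosphate carrier Slc25a3 and the adenine nucleotide translocator Slc25a5 (ANT2) were the SLC loci with the highest mean level. Slc25a3 was 329.6 and 295.6 FPKM in basal and 241 and 202 FPKM in suprabasal cells. Slc25a5, on the X chromosome, was 281 and 385 FPKM in basal (0.45, q = 0.466 in the authors' deposited table) and 210.4 and 223 FPKM in suprabasal cells. Slc25a4 (ANT1) lay between 73.0 and 90.6 FPKM in the 4 groups. Slc25a4 and Slc25a5 are close in sequence, and how reads shared by such copies were counted is not given in the sources used here. Slc25a24, a calcium-sensitive carrier of ATP-magnesium and phosphate, was 17.5 and 27.9 FPKM in basal cells (0.68 ± 0.30, q = 0.242 in the authors' deposited table) and 15.1 and 14.7 FPKM in suprabasal cells. Slc25a39, a carrier of mitochondrial glutathione, lay between 68.1 and 78.0 FPKM in the 4 groups. The NAD carrier Slc25a51, named after its values were seen, was 45.5 and 23.2 FPKM in basal cells (-0.97 ± 0.41, q = 0.175 in the authors' deposited table) and 39.0 and 21.2 FPKM in suprabasal cells. Its locus also holds a small RNA gene on the same strand.

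Among fatty acid, choline and lipid carriers, 4 of 5 basal and all 5 suprabasal loci were below 0 (4 of 5 in each layer when centred, with Slc27a4 turning in suprabasal cells), and Slc27a3 in basal cells was the single call. Slc27a4 encodes FATP4, whose loss causes a barrier defect in newborn mice. Its levels were 7.95 and 6.89 FPKM in basal and 13.2 and 12.6 FPKM in suprabasal cells, with log2 fold changes of -0.21 and -0.06. The choline carrier Slc44a2 was 45.8 and 38.1 FPKM in basal cells and 62.2 and 31.2 FPKM in suprabasal cells (-0.996 ± 0.42, q = 0.278 in the authors' deposited table).

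Zinc and manganese carriers did not share a direction. In basal cells 8 of 14 loci were below 0 (median -0.10, or 6 loci and 0.02 when centred), in suprabasal cells 7 of 16 (median 0.07, or 7 loci and 0.15 when centred), and none was called. Slc39a8 (ZIP8), which brings zinc and manganese into cells, was 5.25 and 11.2 FPKM in basal cells (1.09 ± 0.41, q = 0.0948 in the authors' deposited table). In suprabasal cells it was 18.3 and 11.8 FPKM (-0.64 ± 0.41). Slc39a6 (ZIP6), another zinc importer, was 33.5 and 35.8 FPKM in basal and 24.8 and 47.3 FPKM in suprabasal cells (0.93 ± 0.44, q = 0.411 in the authors' deposited table). The zinc exporter Slc30a1 was 11.5 and 9.99 FPKM in basal and 8.64 and 7.20 FPKM in suprabasal cells. The locus that names Slc39a1 (ZIP1) and its neighbour Crtc2 had the highest level of the class in 3 of the 4 groups, 39.9 and 32.5 FPKM in basal and 44.0 and 48.4 FPKM in suprabasal cells. Slc39a4, the zinc importer of acrodermatitis, and the iron exporter Slc40a1 were not analysed here.

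Carriers of iron, copper, magnesium and heme were 5 loci, with no call in either layer. Their basal median was 0.03 and their suprabasal median 0.08. The copper importer Slc31a1 (CTR1) was 14.2 and 17.5 FPKM in basal and 26.3 and 40.6 FPKM in suprabasal cells (0.30 and 0.63). All 5 were higher in suprabasal than in basal cells in both genotypes, with a median log2 ratio of 0.86 in wild type and 0.88 in bitransgenic cells. The medians of all loci of the minimum level were -0.04 and -0.03. These ratios were picked after the values were seen, carry no error and join layers that were scaled on their own, so they are descriptions only.

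Carriers of chloride, bicarbonate, protons and sodium were below 0 at 12 of 15 basal loci (median -0.37) and 11 of 16 suprabasal loci (median -0.12), or 10 and 8 loci when centred, with Slc24a3 as the single call. Of these loci, 4 basal and 3 suprabasal ones passed the minimum through the wild type group alone, and over the loci at 5 FPKM in both groups the medians were -0.29 and -0.01. The sodium-potassium-chloride carrier Slc12a2 (NKCC1) was 9.57 and 9.83 FPKM in basal cells and 8.43 and 4.54 FPKM in suprabasal cells (-0.89 ± 0.40, q = 0.368 in the authors' deposited table). The phosphate carrier Slc20a1 was 32.7 and 22.9 FPKM in basal and 25.8 and 30.6 FPKM in suprabasal cells. Its basal log2 fold change was below 0 and its suprabasal one above 0, and neither was called.

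Organic ion and drug carriers were below 0 at 5 of 6 basal loci, with a median of -0.51, and at 4 of 6 suprabasal loci (5 and 3 when centred). Besides Slc22a4, the lipocalin receptor Slc22a17 was 7.29 and 2.08 FPKM in basal cells (-1.81 ± 0.86, q = 0.306 in the authors' deposited table) and 10.2 and 10.3 FPKM in suprabasal cells. The orphan Slc22a23 was 3.14 and 6.66 FPKM in basal cells (1.08 ± 0.53) and 10.4 and 11.5 FPKM in suprabasal cells. Lysosomal, vesicle and peptide carriers were below 0 at 4 of 5 basal and 3 of 6 suprabasal loci, and vitamin carriers at 2 of 3 and 2 of 5, with no call. Of the 5 basal lysosomal, vesicle and peptide loci, 3 carry the symbol Slc15a2, all below 0, and may be parts of 1 gene. The minimum was passed through the wild type group alone by 2 of the 5. Slc17a5, which exports sialic acid from lysosomes, was 8.53 and 2.87 FPKM in suprabasal cells (-1.57 ± 0.70, q = 0.349 in the authors' deposited table). In basal cells its levels were 3.86 and 3.58 FPKM. The thiamine carrier Slc19a2 had the highest level among vitamin carriers in wild type basal cells, with 10.3 and 7.79 FPKM there and 9.75 and 8.39 FPKM in suprabasal cells.

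Nucleoside and nucleotide sugar carriers and other carriers of the endoplasmic reticulum and Golgi were below 0 at 12 of 17 basal and 10 of 18 suprabasal loci (10 and 9 when centred), and Slc29a3 was their single call. Slc35f5, an orphan of the nucleotide sugar family, was 10.96 and 4.67 FPKM in suprabasal cells (-1.23 ± 0.57). The locus that names Slc35a3, a Golgi carrier of UDP-N-acetylglucosamine, together with Hiat1 was at 39.4 and 46.3 FPKM in basal and 38.8 and 29.9 FPKM in suprabasal cells.

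Carriers of the melanosome formed a separate case. Slc24a5 (NCKX5) and Slc45a2 serve pigment granules, and both were included in suprabasal cells only. Slc24a5 was 118 and 189 FPKM in suprabasal cells (0.68, q = 0.659 in the authors' deposited table), and Slc45a2 was 14.2 and 25.3 FPKM (0.83 ± 0.41, q = 0.473 in the authors' deposited table). Neither was called. All 11 of 11 melanocyte markers in suprabasal cells lay above 0, none called, and their levels summed to 2239 FPKM in the wild type and 4153 FPKM in the bitransgenic group. In basal cells 4 of the 11 were measured, with sums of 10.9 and 17.0 FPKM. The part of melanocyte RNA in the levels of these 2 carriers, or of other suprabasal SLC loci such as Slc7a8, was not tested.

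**Figure D4:**
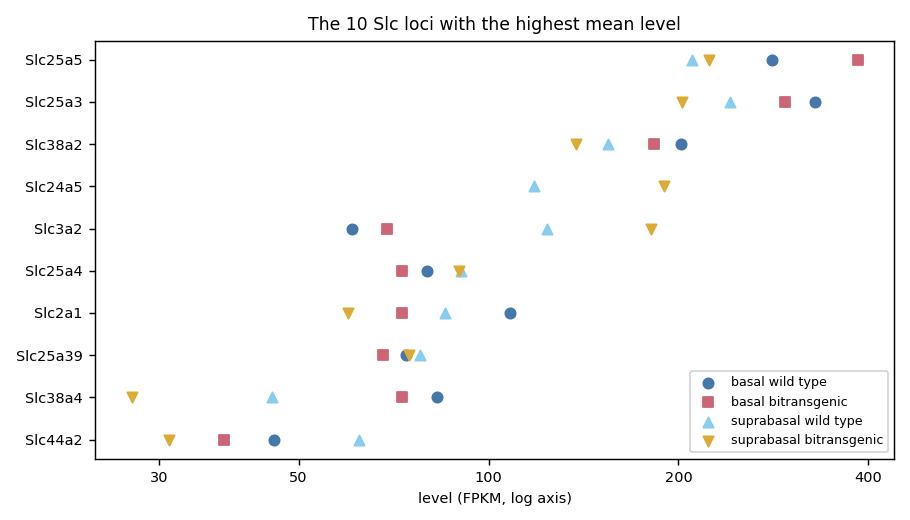
Levels (FPKM, log axis) of the 10 SLC loci with the highest mean level, with 1 pooled value for each of the 4 groups (symbols as in the key). Slc25a3, Slc25a5 and Slc38a2 lie above 130 FPKM in every group, and Slc24a5 has suprabasal values only.

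The genotype difference was compared between layers for the 138 SLC loci tested in both. A Wald test (two-sided, on the normal scale) of the suprabasal value minus the basal value called none of them after Benjamini-Hochberg adjustment over 10583 loci, of which 0.0378% were called. The smallest adjusted p among SLC loci was 0.770. Without adjustment, 3 of 138 SLC loci (2.17%) had a p under 0.05, against 3.08% of all loci. Slc39a8 had a difference of -1.72 ± 0.58 and Slc9a3r1 one of -1.05 ± 0.49, both higher in bitransgenic basal and lower in bitransgenic suprabasal cells. The levels of Slc9a3r1 were 10.7 and 16.7 FPKM in basal and 24.7 and 18.5 FPKM in suprabasal cells. Slc25a10 had a difference of 1.61 ± 0.60. Of the 119 loci included in both layers, 54 were lower in both, 17 were higher in both and 48 had opposite signs. Of all loci of the minimum level, 59.4% in basal and 56.5% in suprabasal cells lay below 0. No joint count over all loci is given here, and the level minimum fixed the sign of some SLC loci. These sign counts are therefore descriptions only. The test takes the layers as independent, although 3 wild type and 1 bitransgenic title stems recur in both.

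**Figure D5:**
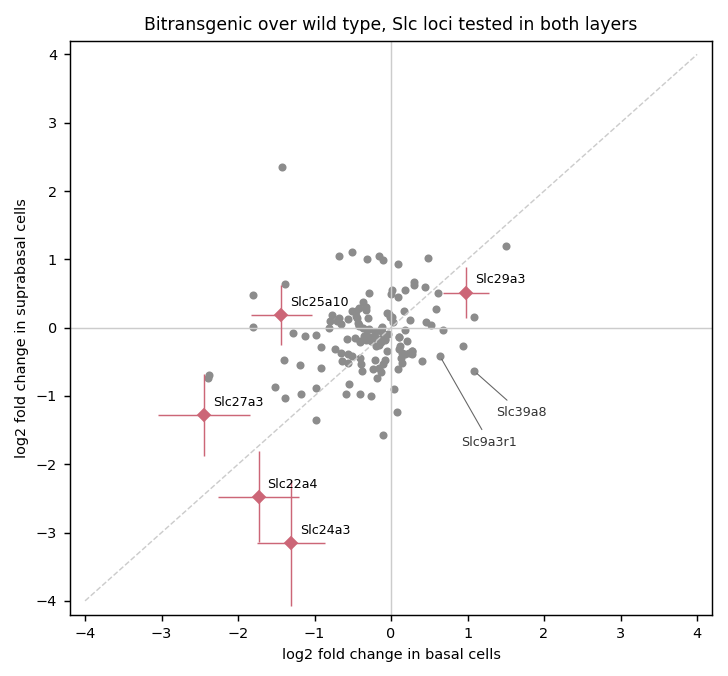
Log2 fold change in suprabasal cells (vertical axis) against that in basal cells (horizontal axis) for the 138 SLC loci tested in both layers. Red diamonds with derived SE bars are loci called in a layer, grey points are the rest, and the dashed line marks equal values; Slc22a4, Slc24a3 and Slc27a3 lie low on both axes.

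Between layers, wild type SLC levels were centred near equality. The median log2 ratio of suprabasal over basal level was -0.05 over 138 SLC loci, where that of all loci was -0.04, and 120 of the 138 lay within 1 log2 unit of 0. In bitransgenic cells the median was 0.10, where that of all loci was -0.03. These ratios carry no error, since each group has 1 pooled level. Beyond 1 log2 unit in wild type, 11 loci were higher in suprabasal and 7 higher in basal cells. The highest wild type ratios were 1.89 for the zinc and iron importer Slc39a14 (2.93 and 10.9 FPKM), 1.80 for Slc39a8, 1.72 for Slc22a23, 1.64 for the Slc16 carrier Slc16a6, 1.55 for the zinc carrier Slc39a11 and 1.21 for Slc9a3r1. The lowest were -1.61 for Slc27a3, -1.56 for Slc1a3, -1.49 for the lowest of the 3 loci named Slc15a2, -1.31 for the aspartate-glutamate carrier Slc25a12, -1.17 for Slc2a5 and -1.07 for the polyamine carrier Slc18b1.

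Genes that work with the carriers changed at few loci. The list of partners and pumps also holds transporters whose symbols fall outside the inclusion rule, among them Slco2a1, Slco3a1, Slco4a1, Mpc1, Mpc2 and Mfsd2a. Of 26 measured partners and pumps in basal cells and 25 in suprabasal cells none was called, where 1.65% and 0.471% of all loci were. Among them were the water and glycerol channel Aqp3 (331 and 305 FPKM in basal cells) and basigin, Bsg, the chaperone of monocarboxylate carriers (149 and 163 FPKM). No gene of the amino acid stress (ATF4) list was called, of 21 in basal and 22 in suprabasal cells, and none of the amino acid sensing and mTORC1 list, of 18 and 20. Atf4 itself was 113 and 97.8 FPKM in basal cells, and in suprabasal cells it was 161 FPKM in wild type with a log2 fold change of -0.69 ± 0.33 (q = 0.448 in the authors' deposited table). In the glucose use and hypoxia list 1 of 20 basal genes was called lower and none of 22 suprabasal genes was called. That gene was Txnip, an inhibitor of glucose uptake, at 51.4 and 21.4 FPKM (-1.26 ± 0.31). Its authors' p was the smallest among basal loci, so this SE is an upper bound. The glycolytic genes Aldoa, Ldha and Pkm, at 289, 236 and 247 FPKM in wild type basal cells, had log2 fold changes of 0.21, 0.44 and 0.27 that were not called.

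In the zinc and iron list 2 of 14 basal genes and 1 of 15 suprabasal genes were called lower, where 1.65% of all basal and 0.471% of all suprabasal loci were called. The zinc-binding metallothioneins Mt1 and Mt2 fell in basal cells, Mt1 from 1150.5 to 595 FPKM and Mt2 from 1099 to 449 FPKM. Their log2 fold changes were -0.95 ± 0.29 and -1.29 ± 0.32. In suprabasal cells the ferritin heavy chain gene Fth1, whose protein stores iron, fell from 291 to 104 FPKM (-1.48 ± 0.36). The authors' p of Mt2 and of Fth1 was the smallest of the layer concerned, so these 2 SEs are upper bounds. Over the same comparisons no zinc, manganese or iron carrier was called.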

How the data were processed

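The authors deposited 1 comparison table for each layer, with a header in the form of a Cuffdiff table. TopHat, Cufflinks and the build mm10 are listed without versions in the submitters' processing notes. Per the labels, 10 ng of RNA went into each strand-specific library. The deposited levels were read as FPKM. The fold changes deposited beside them are on the log2 scale. A score, the authors' test statistic, was not used. Each deposited p-value and q-value is the authors' own. Each group is 1 pooled value, so the depth of a sample is unknown and no interval from counts was made. The authors' scaling between libraries is not given in the sources used here.

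Tables were joined by locus, and starts were made 1-based. The SE is the absolute log2 fold change divided by the normal quantile of the authors' two-sided p. The layer test was tested on simulated data. Python 3.11.15, pandas 2.3.3 and scipy 1.17.1 were used. Named were called loci, the 6 largest rises and falls per layer with p under 0.05, the 10 highest levels, the highest of each class, the 6 most extreme layer differences and layer ratios, and 16 listed carriers, of which 3 were not analysed here. Slc25a51 and the loci around Slc22a4 were chosen after their values were seen. The members and lists were chosen with earlier results of these data known. Of 151 loci, 8 name further genes and 12 contain a small RNA gene on their strand, among them Slc2a1, Slc25a3 and Slc24a5. A few loci are not reported here.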

Additional observations from a re-analysis of the deposited data

How the results depend on the processing

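Of the 5 basal calls 1 was kept under Benjamini-Hochberg adjustment over the table, and 1 when fold changes were also centred on the median locus (Slc27a3 in both cases). The adjusted p-values of the others ranged, over these 2 settings, from 0.116 to 0.202 for Slc22a4, 0.210 to 0.362 for Slc24a3, 0.0549 to 0.130 for Slc25a10 and 0.0562 to 0.116 for Slc29a3. The suprabasal call of Slc22a4 was kept under the first setting (adjusted p of 0.0488) and lost under the second, which left 0 calls (adjusted p of 0.0777). All of these adjusted p-values rest on the authors' p. Over all basal loci of the level minimum, calls numbered 177 by the authors' q and 62 and 40 under these settings. Centring moved the basal SLC median from -0.28 to -0.17, and a minimum of 5 FPKM in both groups, chosen after seeing the data, moved it to -0.15. The suprabasal median of -0.11 was -0.03 centred, -0.04 with that minimum in both groups, -0.06 with a pseudocount of 5 FPKM and -0.01 with no level minimum. In suprabasal cells centring turned the sign of Slc25a24 (0.049), Slc25a39 (0.017), Slc25a4 (0.065) and Slc27a4 (0.023). Other level minimums and leaving out loci that name several genes kept both counts of calls within 1.5 times. No paired analysis was possible because the tables hold 1 pooled value for each group, and leaving out a sample was not possible for the same reason. Depth is unknown, and the widest derived SE of an SLC locus in each layer belonged to a locus under 5 FPKM in its lower group.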

Other observations

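The peptide carrier Slc15a2 (PEPT2) appeared as 3 loci, all lower in bitransgenic basal cells and of mixed direction in suprabasal cells. The main locus was 35.0 and 26.7 FPKM in basal and 46.2 and 32.02 FPKM in suprabasal cells, wild type first. The other loci were 8.60 and 6.06 FPKM and 5.02 and 1.86 FPKM in basal cells, and 6.13 and 13.3 FPKM and 1.79 and 9.14 FPKM in suprabasal cells. None of these differences was called. Levels of loci that share a symbol may come from parts of 1 gene, which was not tested.

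Of the SLC loci 5 in each layer lie on the X chromosome, among them Slc25a5, and none was called. Their median log2 fold change was -0.07 in basal and 0.09 in suprabasal cells, against -0.29 and -0.12 for the autosomal loci. Xist, which is transcribed from the inactive X chromosome of female cells, was listed at 0.258 FPKM in wild type and 108 FPKM in bitransgenic basal cells, and at 0.236 and 103 FPKM in suprabasal cells. It was called higher in basal cells (q = 0.0371 in the authors' deposited table) and not called in suprabasal cells (q = 0.141). Y-linked genes were measured in both genotypes and none was called: Ddx3y was 32.1 and 20.7 FPKM in basal and 31.2 and 14.1 FPKM in suprabasal cells, and Eif2s3y 35.2 and 23.0 FPKM in basal and 38.9 and 28.6 FPKM in suprabasal cells, wild type first. The bitransgenic pools thus held both Xist and Y-linked RNA. The labels give no sex, and the part of sex in the genotype differences of the SLC loci, X-linked or autosomal, was not tested.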
